A study of Mus musculus with 2 samples.

Results

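The cells described here were macrophages of mouse MC38 tumors that carried complement C1q genes together with Dcstamp, Ccl17 or Tnip3. MC38 is a mouse colon carcinoma line, and wild-type mice carrying MC38 tumors either had no irradiation (Control) or had a dose of 20 Gy to the tumor 4 days before collection (IR). Live CD45+ cells of several pooled tumors made up 1 droplet library per group, so differences between Control and IR have no replicate check, no test was run, and intervals cover counting error only. The sample records also name a narrower sort (CD45+CD11b+Ly6Chi), but T cell and NK cell barcodes were present in the files (434 and 222 in Control, 370 and 287 in IR), as in a CD45+ sort.

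Cells were chosen barcode by barcode from raw UMI counts, where a UMI is the molecular tag that lets copies of the same captured transcript be counted only once. A barcode was kept with at least 2000 UMIs and at most 25% mitochondrial UMIs, which left 4249 barcodes in Control and 3159 in IR, 7408 in all. It then had to show no Cd3d or Cd3g, at least 10 UMIs of C1qa, C1qb and C1qc that also outnumbered the monocyte genes Ly6c2, Ccr2 and Chil3, fewer than 5 UMIs of the cell cycle genes Mki67, Top2a, Birc5, Ube2c and Pclaf, and fewer than 3 of the resident macrophage genes Lyve1, Folr2, Cd209f and Cbr2. These are called C1q macrophages, and there were 1188 in Control and 373 in IR. The C1q macrophages with at least 3 UMIs of Dcstamp, Ccl17 and Tnip3 together are called DCT macrophages, 289 in Control and 83 in IR, 372 in all. Those with 0 UMIs of the 3 genes, 552 and 195 cells, served as the DCT-negative comparison, and the 347 and 95 cells with 1 or 2 UMIs lay between. Since the selection used the counts of these same cells, the levels of the 3 genes and every contrast of DCT macrophages with DCT-negative cells are given as descriptions.

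Macrophages and dendritic cells overlap in the genes they express, and tissue macrophages that arise from monocytes can take up antigen and present it on MHC class II to CD4 T cells. DCSTAMP is a membrane protein needed for the fusion of osteoclasts and foreign-body giant cells, and it is also made by dendritic cells and by macrophages exposed to IL-4 or GM-CSF. CCL17 is a chemokine that attracts CCR4-bearing T cells, and TNIP3 binds the deubiquitinase A20 and is itself induced by NF-kB. MGL2, a galactose-binding lectin, marks alternatively activated macrophages and a subset of dendritic cells, and H2-Eb1 encodes a beta chain of MHC class II.

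The genes lie apart in the mouse genome (GRCm38, GENCODE vM21), and all 5 are protein coding. Dcstamp is at chr15:39745930-39760938, Ccl17 at chr8:94810453-94812036, Tnip3 at chr6:65525313-65634040, Mgl2 at chr11:70130329-70137550 and H2-Eb1 at chr17:34305867-34316674, each on the plus strand. Promoters of the RefSeq gene starts (GRCm38.p6, 250 bases before to 50 after the start) were searched on both strands for the NF-kB site GGGANTTCC and for the Y box CTGATTGG, which binds NF-Y in MHC class II promoters. Of 32851 promoters in the table, 1.68% held the first and 4.10% held the second, and in the promoters listed here no match of one motif overlapped a match of the other. The marker genes Tnip3, Ccl17, Mgl2 and H2-Eb1 had an entry, Dcstamp had none. The Tnip3 promoter held the NF-kB letters on its minus strand, beginning 53 bases before the RefSeq start, and is shown with that match in capitals because Tnip3 was the rule gene found in most cells. The H2-Eb1 promoter held the Y box 62 bases before the start, in capitals, and neither motif was found in the Ccl17 or Mgl2 window.
Tnip3, chr6:65590148-65590447, plus strand: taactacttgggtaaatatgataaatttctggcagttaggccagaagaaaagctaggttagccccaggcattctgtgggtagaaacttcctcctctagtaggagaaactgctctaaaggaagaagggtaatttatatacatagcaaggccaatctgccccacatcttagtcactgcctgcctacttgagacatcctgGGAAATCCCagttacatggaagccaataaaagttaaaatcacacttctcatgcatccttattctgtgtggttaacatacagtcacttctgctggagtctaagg
H2-Eb1, chr17:34305617-34305916, plus strand: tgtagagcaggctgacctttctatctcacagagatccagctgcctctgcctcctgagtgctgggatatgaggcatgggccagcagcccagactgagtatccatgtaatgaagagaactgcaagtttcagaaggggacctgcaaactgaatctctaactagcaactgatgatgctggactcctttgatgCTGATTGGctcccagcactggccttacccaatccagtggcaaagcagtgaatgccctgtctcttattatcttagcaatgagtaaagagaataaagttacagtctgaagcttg

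DCT macrophages were a smaller part of the immune cells after irradiation, but the whole C1q population was smaller too. They made up 6.80% of Control barcodes (95% exact binomial interval 6.06% to 7.60%) and 2.63% of IR barcodes (2.10% to 3.25%). The ratio of IR to Control was 0.386 (0.304 to 0.491, log method), beside 0.422 (0.380 to 0.470) for all C1q macrophages and 0.475 (0.406 to 0.556) for the DCT-negative ones. Within the C1q macrophages they were 24.3% in Control (21.9% to 26.9%) and 22.3% in IR (18.1% to 26.8%), and the ratio of 0.915 had an interval (0.738 to 1.13) that included 1. A fixed UMI threshold is easier to reach in a deeper cell. DCT macrophages had a median of 11131 UMIs in Control and 16211 in IR, above the 6852 and 9027 of DCT-negative cells. With each barcode thinned to 5000 UMIs and 1100 and 742 shallower barcodes left out, 152 of 1060 Control C1q macrophages (14.3%, 12.3% to 16.6%) and 30 of 313 IR ones (9.58%, 6.56% to 13.4%) passed the rule. At that depth the ratio within C1q macrophages was 0.668, and among all barcodes 0.257. Both lay below the intervals of the ratios with all UMIs, and no interval was computed for them. In droplet data of sorted cells, a lower share cannot be told apart from a higher share of other cells.

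**Figure D1:**
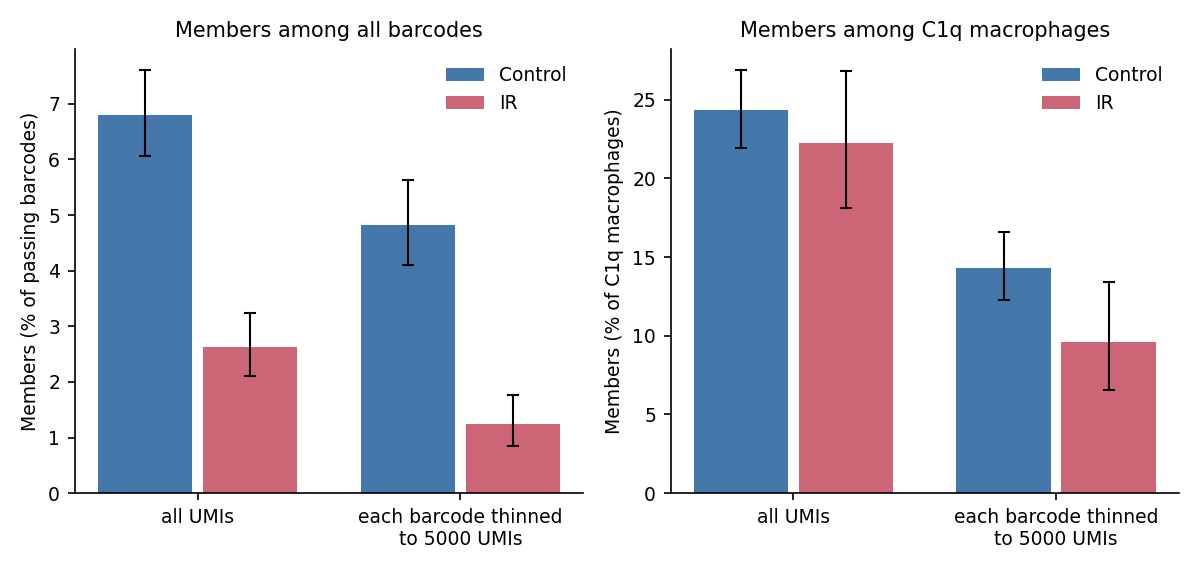
Share of DCT macrophages ("members") among all passing barcodes (left) and among C1q macrophages (right), in percent, for Control and IR, with all UMIs and with every barcode thinned to 5000 UMIs. Bars are shares and lines are 95% exact binomial intervals. Among all barcodes the IR bar is lower at both depths. Among C1q macrophages it is lower too, with ratios of 0.915 and, at 5000 UMIs, 0.668. The separate intervals overlap there, which does not show that the shares were equal.

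Of the 3 rule genes, Tnip3 carried most of the selection. Tnip3 was found in 90.7% of DCT macrophages in Control and 83.1% in IR, Dcstamp in 44.6% and 57.8%, and Ccl17 in 36.3% and 43.4%. With the same cells thinned to 5000 UMIs (276 and 81 cells), the shares were 71.7% and 50.6% for Tnip3, 29.0% and 35.8% for Dcstamp and 29.7% and 38.3% for Ccl17. All 3 were found together in 50 Control cells (17.3%) and 20 IR cells (24.1%), while 118 Control cells (40.8%) and 23 IR cells (27.7%) had Tnip3 alone. Levels are given as CPM, the gene's UMIs per 1000000 UMIs of the summed cells. Dcstamp was at 108 in Control and 158 in IR, Ccl17 at 535 and 1025, and Tnip3 at 324 and 196. As the cells were chosen on these genes, the values are a description of the selection. Under the rule at 5000 UMIs per barcode, the log2 ratio of IR to Control was 0.32 for Dcstamp, 0.38 for Ccl17 and -0.35 for Tnip3, and the counting intervals included equality for Dcstamp and Tnip3. Ccl17 was also the most uneven: the 5 highest cells held 33.3% of its UMIs in Control and 45.2% in IR, with up to 215 and 222 UMIs in a cell. Cells with 10 or more Ccl17 UMIs were 42 of 289 (14.5%) in Control and 22 of 83 (26.5%) in IR. Without those cells Ccl17 was at 68.2 CPM in Control and 47.2 CPM in IR, the opposite order. That removal used Ccl17 itself, and a fixed count is a lower CPM in the deeper IR cells. The order after it is therefore partly set by the removal and cannot be read as a result.

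Cells just below and just above the threshold of 3 UMIs had similar H2-Eb1 in Control but not every gene was alike. C1q macrophages with exactly 2 UMIs (116 in Control, 32 in IR) had H2-Eb1 at 4474 and 2885 CPM and Mgl2 at 422 and 118 CPM. Those with exactly 3 (78 and 14) had H2-Eb1 at 4547 and 3970 CPM and Mgl2 at 338 and 134 CPM. Adgre1, which encodes the macrophage antigen F4/80, was at 136 and 61.1 CPM with 2 UMIs and at 66.9 and 108 CPM with 3. With exactly 4 UMIs (37 and 12 cells) it was at 81.3 and 27.1 CPM. It was thus lower above the threshold in Control, while in IR the few cells gave no steady order. The same 3 genes at 3 or more UMIs were also found outside the rule, in 46.0% and 45.4% of a mature dendritic cell gate (3 or more UMIs of Ccr7 and Fscn1 and fewer than 10 of C1q, 161 and 218 barcodes) and in 31.1% and 45.2% of cycling C1q macrophages (264 and 31). The share was 23.7% and 35.6% in a gate for type 2 conventional dendritic cells (2 or more Cd209a UMIs, fewer than 10 of C1q and fewer than 10 of the monocyte genes, 38 and 45 barcodes) and 12.1% and 10.3% in a monocyte gate. In cells that should lack these genes it was 1.35% and 1.74% (NK cells, median 8163 and 9441 UMIs) and 13 of 434 and 25 of 370 (T cells, the latter 6.76%, median 5345 and 8665 UMIs). Among droplets of 10 to 100 UMIs, taken as free RNA, Dcstamp was at 14.6 and 17.8 CPM, Ccl17 at 164 and 100 CPM and Tnip3 at 60.6 and 33.9 CPM.

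**Figure D2:**
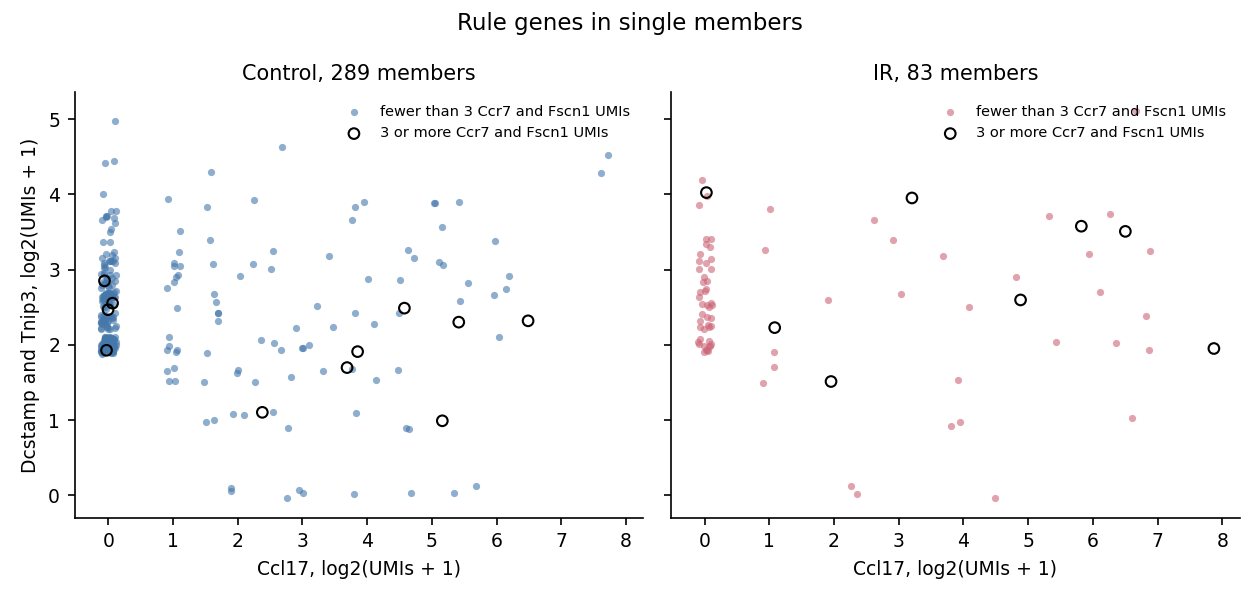
UMIs of Ccl17 (x axis) against Dcstamp and Tnip3 (y axis) in each DCT macrophage ("members") of Control (289 cells) and IR (83 cells), both as log2 of UMIs plus 1 with a small random shift to separate points. Open circles are the 11 Control and 8 IR cells with 3 or more UMIs of the mature dendritic cell genes Ccr7 and Fscn1. Most cells lie at Ccl17 of 0, and Ccl17 spreads widely among the rest.

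The name of the population was checked against markers of macrophages and of the other cells a CD45+ sort can hold. All 11 macrophage markers listed were detected in DCT macrophages of both libraries, among them Csf1r, the CSF-1 receptor (376 CPM in Control, 344 in IR). Detection in the summed UMIs does not by itself bear on the name. Every gene of the monocyte, conventional dendritic cell, NK and fibroblast lists was detected in both libraries too. Summed, the macrophage list was at 2969 and 2411 CPM, beside 6527 and 4726 CPM in DCT-negative cells, a lower level of these genes in both libraries. The conventional dendritic cell list (Flt3, Zbtb46, Dpp4) was low, at 14.2 and 16.9 CPM, but above the 7.99 and 4.53 CPM of DCT-negative cells. Of DCT macrophages, 1.73% and 7.23% had 2 or more UMIs of that list against 1.09% and 0.513%, a count easier to reach in the deeper DCT macrophages. Of the genes of that list, Flt3, a growth factor receptor, was at 3.42 and 5.62 CPM, and the transcription factor gene Zbtb46 at 2.56 and 3.51 CPM. The list of type 1 dendritic cells was at 53.8 and 35.8 CPM (55.5 and 29.2 in DCT-negative cells), most of it Wdfy4 (41.0 and 25.3 CPM), with Xcr1 at 2 UMIs in Control and 0 in IR. The list of type 2 dendritic cells was at 46.7 and 42.8 CPM (55.0 and 23.7 in DCT-negative cells), with Clec10a at 27.3 and 21.1 CPM and Cd209a at 7.12 and 8.43 CPM. The mature dendritic cell gate had Adgre1, the F4/80 gene, at 4.20 and 0.664 CPM, H2-Eb1 at 1250.4 and 1153 CPM and Ccl22 at 1413 and 1004 CPM, so DCT macrophages (Adgre1 at 66.0 and 48.5 CPM) had more Adgre1 and H2-Eb1 and less Ccl22 than that gate. The type 2 dendritic cell gate was closer in class II and Mgl2, with H2-Eb1 at 5478 and 6575 CPM and Mgl2 at 521 and 507 CPM, beside 5379 and 4595 CPM and 548 and 383 CPM in DCT macrophages, and it had Ccl17 at 974 and 366 CPM and Adgre1 at 29.0 and 8.93 CPM. H2-Eb1 and Mgl2 thus did not set DCT macrophages apart from that gate, which by its rule held fewer C1q UMIs. Plasmacytoid dendritic cell and mast or basophil markers had 0 UMIs in both libraries, which by a floor of 3 counts allows a level of up to 0.854 CPM in Control and 2.11 CPM in IR.

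RNA of other lineages was present in part of the cells. A DCT macrophage was left out with 2 or more UMIs of the mature dendritic cell, T, NK, B, neutrophil, mast or fibroblast list. This left 209 of 289 Control cells and 46 of 83 IR cells. The cut is a fixed count, which is easier to reach in the deeper IR cells (median 16211 UMIs against 11131). The mature dendritic cell list (Ccr7, Fscn1, Cacnb3, Il12b, Nudt17, Socs2) reached 2 UMIs in 45 Control cells (15.6%) and 20 IR cells (24.1%), and was at 96.2 and 388 CPM, against 57.8 and 41.8 CPM in DCT-negative cells. Its Nudt17 was at 0 in Control, and Ccr7 and Fscn1 reached 3 UMIs together in 11 Control and 8 IR cells. The NK list was at 125 and 240 CPM, the T cell list at 15.4 and 9.83 CPM, and the neutrophil list at 24.2 and 62.5 CPM with Retnlg at 0. The neutrophil list in DCT-negative IR cells was far higher, 1552 CPM. Fibroblast genes were at 264 CPM in Control and 4.21 CPM in IR, with 2 or more UMIs in 3 and 1 cells. The B cell list was at 3.13 CPM in Control and had 0 UMIs in IR, and the endothelial list was at 10.8 and 16.9 CPM. Epcam, an epithelial adhesion gene, had 62 UMIs in 22 Control cells and 3 UMIs in 2 IR cells, while Krt8, Krt18 and Krt19 were at 0 in both, and DCT-negative cells had 1 Epcam UMI in Control and 0 in IR. Monocyte genes were at 274 CPM in Control and 1041 CPM in IR, beside 445 and 1797 CPM in DCT-negative cells. The part of this RNA in the differences below was not tested except where values without such cells are given.

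Compared with DCT-negative C1q macrophages of the same library, DCT macrophages had more RNA of the lectin Mgl2, the nuclear receptor gene Nr4a3, the NF-kB subunit gene Rel and the class II gene H2-DMb2, and less of Apoe, Maf, Ms4a7 and Adgre1. The scale is the log2 ratio of CPM plus 10, and a gene was called when the ratio passed 2-fold in the same direction in both libraries. Of 4560 genes with a mean of at least 25 CPM, 9 were called higher (0.197%) and 16 lower (0.351%), and the median log2 ratio over those genes was -0.02 in each library. The 9 higher genes were Areg, Ccl22, Ear2, Flrt3, H2-DMb2, Klrb1b, Mgl2, Nr4a3 and Rel. This naming of all 9 was made after their values were seen.

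Mgl2 was at 548 CPM in DCT macrophages and 244 CPM in DCT-negative cells of Control, and at 383 and 49.3 CPM in IR. Its log2 ratio was 1.13 in Control and 2.73 in IR, and its level in DCT-negative cells was the lower of the 2 in IR. Nr4a3, an early-response nuclear receptor, was at 172 and 169 CPM in DCT macrophages against 58.8 and 57.9 CPM. Rel, the NF-kB subunit c-Rel, was at 196 and 166 against 69.3 and 72.5 CPM. Without the DCT macrophages that carried Ccr7 and Fscn1, the IR log2 ratios of Nr4a3 and Rel were 0.97 and 0.90. Without those holding RNA of other lineages they were 0.97 and 0.72. Both genes were thus under 2-fold in IR after either removal, and stayed above 2-fold in Control. Areg, which encodes the EGF receptor ligand amphiregulin, was at 83.1 and 113 CPM against 9.64 and 8.06 CPM, but 85.7% of its IR UMIs were in 5 cells. Itgax, the CD11c integrin chain of dendritic cells and some macrophages, was at 244 and 242 CPM against 129 and 81.6 CPM (log2 ratios 0.88 and 1.46). Ptgs2, the inducible cyclooxygenase, was at 323 and 419 CPM against 159 and 246 CPM, and the decoy receptor gene Il1r2 at 142 and 322 against 39.7 and 186 CPM. The other genes that led the named set, Cytip, Etv3, Bcl2a1d, Napsa, Ccnd2 and Txnrd1, had log2 ratios between 0.73 and 1.11 in each library.

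Of the 11 macrophage markers, 4 were at least 2-fold lower in DCT macrophages in both libraries (Apoe, Maf, Ms4a7 and Adgre1), while Csf1r had log2 ratios of -0.19 and -0.042 and Cx3cr1 of -0.82 in Control and 1.29 in IR. Apoe, the lipid carrier apolipoprotein E, was at 1114 CPM in Control and 534 CPM in IR, against 3474 and 1747 CPM in DCT-negative cells (log2 ratios -1.63 and -1.69). The transcription factor Maf was at 41.3 and 47.1 CPM against 182 and 153 CPM, Ms4a7 at 114 and 68.1 against 395 and 238 CPM, and Adgre1, which encodes F4/80, at 66.0 and 48.5 against 156 and 128 CPM. The chemokine genes Ccl12, Ccl7 and Pf4 were lower as well, with Pf4 at 376 and 484 CPM against 1092 and 1875 CPM. Ctsl, a lysosomal protease, was at 332 and 635 against 816 and 1492 CPM. Rnase4, Ms4a6b and F13a1 completed the group with log2 ratios between -1.01 and -1.51. Gzma, a granzyme gene of NK cells and not of macrophages, was also lower (52.1 and 168 against 136 and 502 CPM), and 14 Control and 10 IR DCT macrophages held all of its UMIs there.

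**Figure D3:**
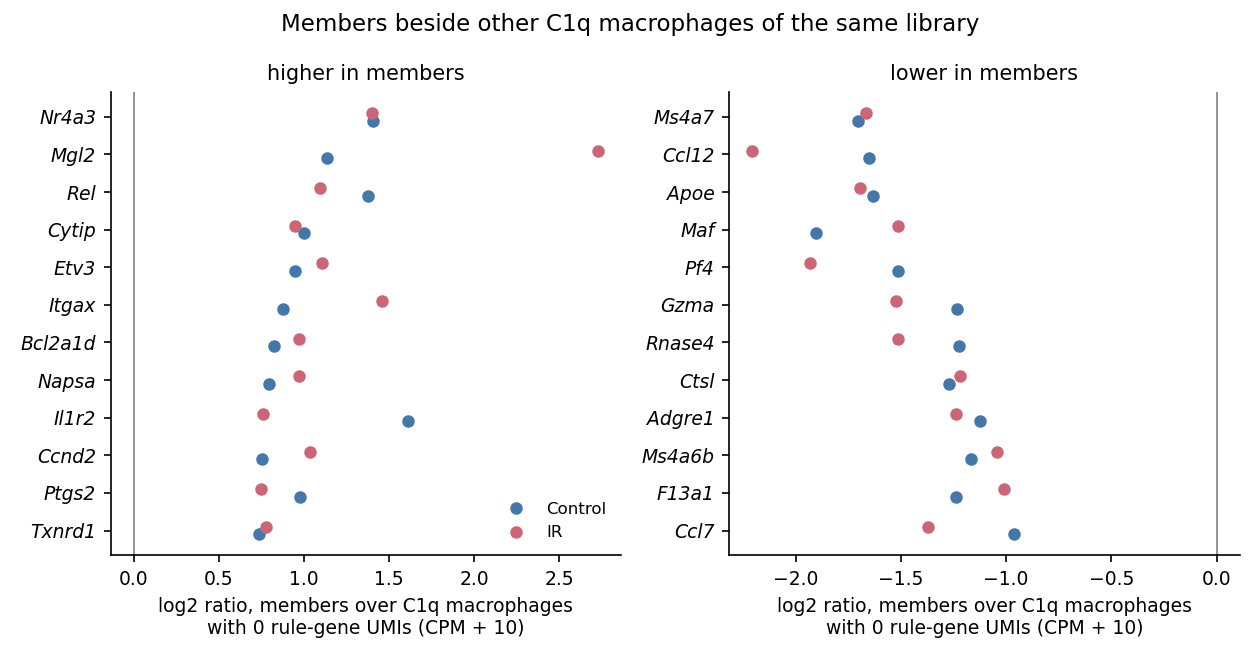
Log2 ratio (CPM plus 10) of DCT macrophages ("members") over DCT-negative C1q macrophages, for the 12 named genes in each direction, with 1 point per library (Control, IR). The genes on the left lie above 0 and those on the right below 0 in both libraries, and Mgl2 is farthest apart between libraries (1.13 and 2.73).

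The main MHC class II genes were at higher levels in DCT macrophages than in DCT-negative cells, with the wider gap in IR, though most stayed under 2-fold in Control. The invariant chain Cd74 was at 17286 CPM in Control and 14809 CPM in IR, against 11956 and 7288 CPM in DCT-negative cells. H2-Eb1 was at 5379 and 4595 CPM against 3390 and 1515 CPM, H2-Ab1 at 5679 and 4853 against 3790 and 2029 CPM, and H2-Aa at 6304 and 5752 against 4210 and 2365 CPM. The class II transactivator Ciita was at 61.2 and 52.7 CPM against 47.9 and 11.1 CPM. Thus the levels in DCT macrophages of the 2 libraries were close, while those of DCT-negative cells were lower in IR. Over the 11 of 14 listed genes that passed the level filter, the median log2 ratio of IR to Control was -0.14 in DCT macrophages, with 0 called, and -0.79 in DCT-negative cells, where the median of all 4467 genes was -0.01 and -0.02. The median log2 ratio of DCT macrophages over DCT-negative cells was 0.39 in Control and 1.05 in IR, with H2-DMb2, a chain of the peptide loader H2-DM, the only listed gene called. The endosomal proteases on the same list were lower in DCT macrophages, Lgmn at 577 and 566 CPM against 1367 and 1045 CPM and Ctss at 2808 and 3547 CPM against 3304 and 3862 CPM.

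Of the class II genes, H2-Eb1 was compared between DCT macrophages with and without Ccl17, a gene of the rule. It was at 6810 CPM in Control and 6559 CPM in IR in DCT macrophages with Ccl17 (105 and 36 cells), and at 4486 and 2686 CPM in those without it (184 and 47 cells), whose median depths were 10686 and 15260 UMIs against 11535 and 18243. Without the cells that had 10 or more Ccl17 UMIs, the list median of IR over Control was -0.51. Without the cells that held 3 or more UMIs of Ccr7 and Fscn1 it was -0.25, and without cells holding RNA of other lineages -0.02. The Y box was present in the promoters of 4 of the 11 listed class II genes that had an entry, H2-Eb1, H2-Aa, H2-Eb2 and H2-Oa. H2-Eb2 and H2-Oa were under 10 CPM in DCT macrophages of both libraries, so the shared letters went with very different levels. The 60 bases around the match, in capitals, are shown on the strand of each gene to compare them.
H2-Eb1, chr17:34305769-34305828, plus strand: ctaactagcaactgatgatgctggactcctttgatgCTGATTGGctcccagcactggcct
H2-Aa, chr17:34287851-34287910, minus strand: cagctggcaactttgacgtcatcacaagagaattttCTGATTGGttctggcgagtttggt
H2-Eb2, chr17:34325536-34325595, plus strand: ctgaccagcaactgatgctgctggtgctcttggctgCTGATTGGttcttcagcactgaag
H2-Oa, chr17:34092297-34092356, plus strand: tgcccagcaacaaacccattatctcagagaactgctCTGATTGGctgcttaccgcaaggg

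**Figure D4:**
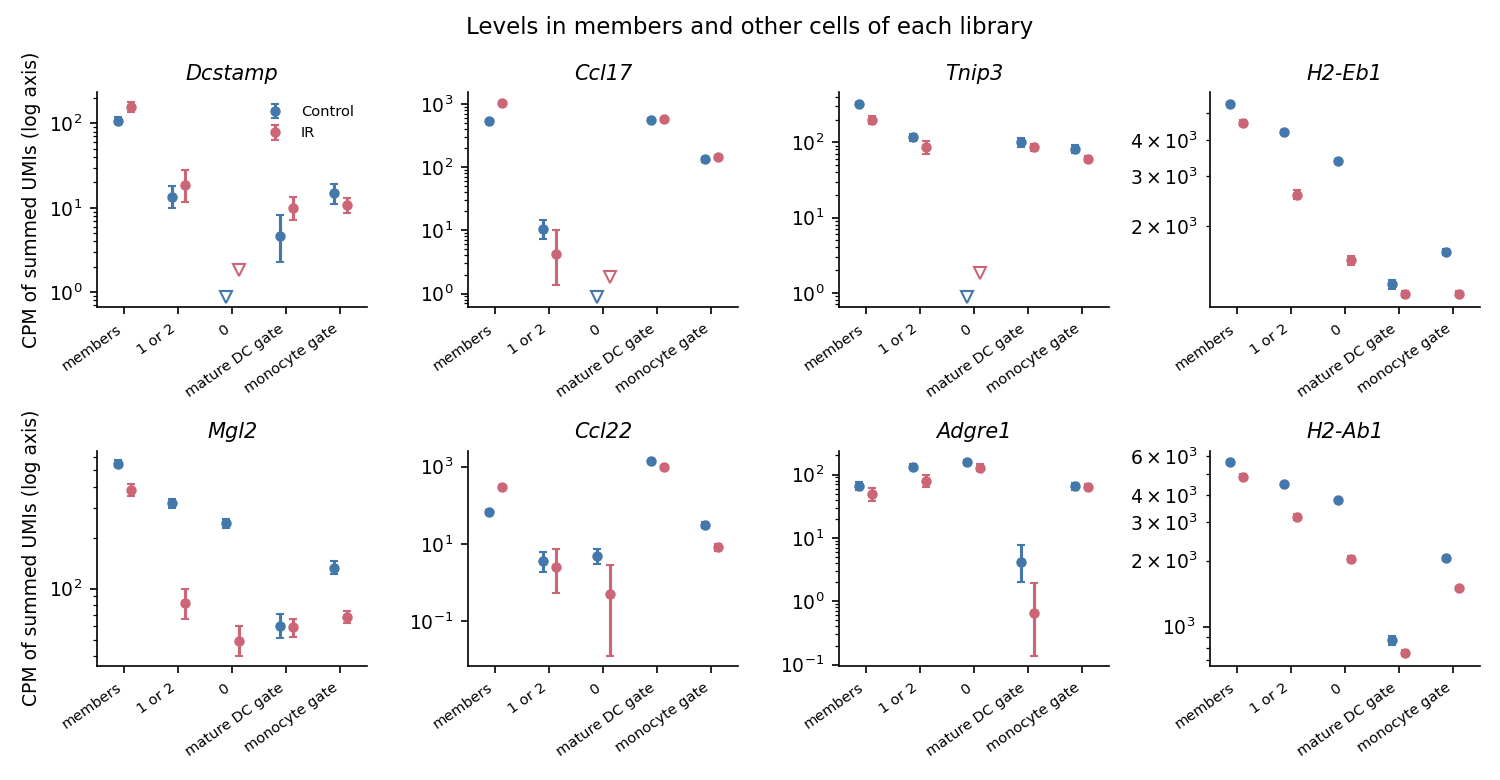
CPM of summed UMIs (log axis) for the 5 marker genes and for Ccl22, Adgre1 and H2-Ab1 in DCT macrophages ("members"), in C1q macrophages with 1 or 2 and with 0 UMIs of the rule genes, and in mature dendritic cell and monocyte gates of Control and IR. Points carry 95% exact Poisson intervals, and open triangles mark the upper end of that interval where 0 UMIs were found. H2-Eb1 and Mgl2 are lower in cells with 0 than in members, with the wider gap in IR (H2-Eb1 4595 to 1515 CPM), whereas Adgre1 is higher in cells with 0.

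The comparison of IR with Control within DCT macrophages asked how these cells differed 4 days after irradiation. Type I interferon response genes were higher in IR, as were 4 chemokine genes and the cytokine genes Inhba, Tnf and Il6, while Mrc1, Klf4, Retnla and Batf3 of the IL-4, IL-13 and GM-CSF list and the sterol synthesis genes Hmgcs1 and Cyp51 were lower. Of 4467 genes with a mean of at least 25 CPM, 80 were at least 2-fold higher in IR (1.79%) and 30 at least 2-fold lower (0.672%), on the scale of CPM plus 10. Folds given below are plain CPM ratios with exact conditional 95% intervals, which treat UMIs as independent and are too narrow for genes carried by few cells.

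All 16 genes of the type I interferon list that passed the level filter were called higher. The list median log2 ratio was 2.24, beside 1.78 in DCT-negative cells. Over DCT-negative cells of the same library, the list median was -0.33 in Control and -0.27 in IR. Irf7, the interferon-induced transcription factor, was at 40.4 CPM in Control and 338 CPM in IR, a ratio of 8.38 (6.93 to 10.2), with 26.8% of its IR UMIs in the 5 highest cells. The ubiquitin-like modifier Isg15 was at 89.7 and 457 CPM (5.10-fold, 4.45 to 5.85) and was found in 69 of 276 and 49 of 81 cells at 5000 UMIs (43.6% and 77.1% unthinned), and the restriction factor Bst2 at 239 and 723 CPM (3.03-fold, 2.77 to 3.33). Ifit3 went from 3.70 to 123 CPM, Ifit1 from 9.68 to 105, Rsad2 from 19.4 to 213 and Oasl1 from 11.7 to 101 CPM. Of the Ifit3 UMIs in IR, 5 cells held 78.9%, so it was spread less evenly than Irf7. The log2 ratio of IR to Control was 2.79 for Irf7, beside 3.13 in DCT-negative cells, and 2.23 for Isg15, beside 3.13. For Ifit3, Ifit1, Rsad2 and Oasl1 it was larger in DCT macrophages than in DCT-negative cells. Of the interferon-gamma list, 0 of 15 were called higher and 1 lower, with a median of 0.13 beside 0.48 in DCT-negative cells. That gene was Cxcl9, which encodes a ligand of CXCR3, at 1151 CPM in Control and 550 CPM in IR, 2.09-fold lower (1.94 to 2.26). Cxcl10, a ligand of the same receptor, was at 604 and 511 CPM in DCT macrophages but at 139 and 557 CPM in DCT-negative cells.

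**Figure D5:**
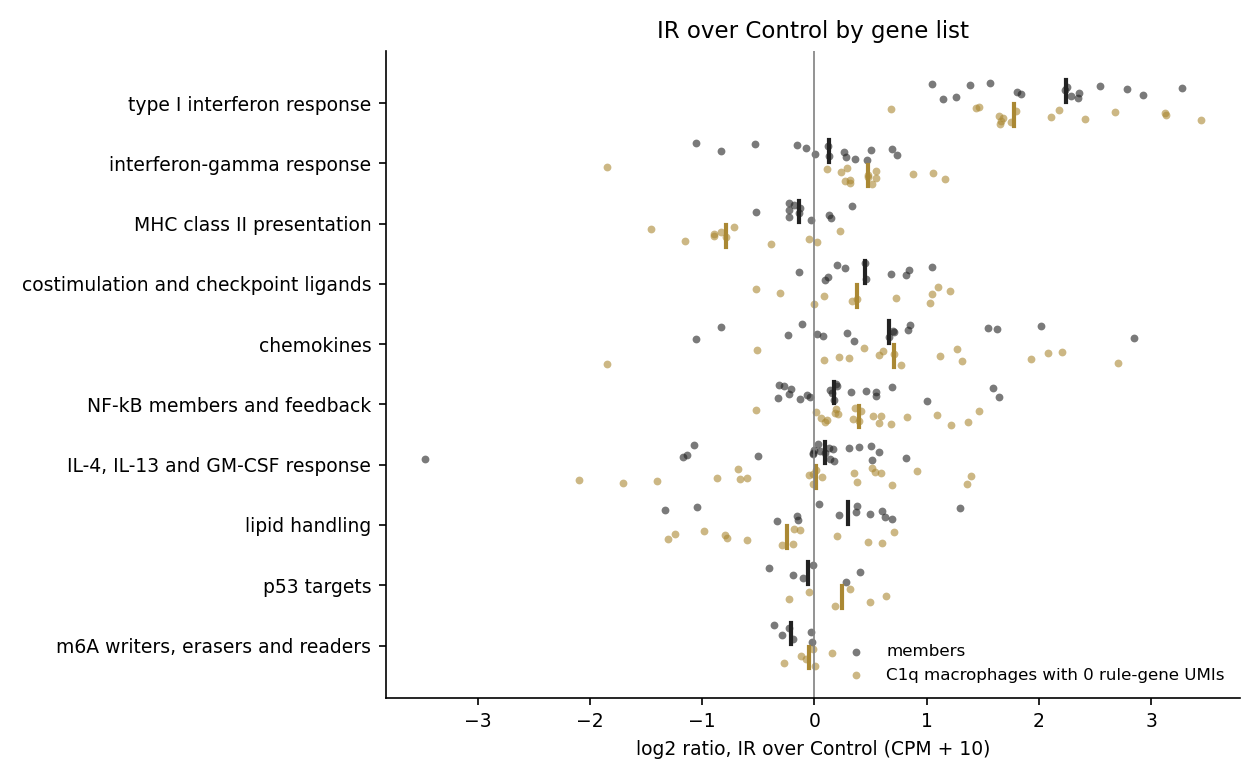
Log2 ratio of IR over Control (CPM plus 10) for each gene that passed the level filter in 10 gene lists, in DCT macrophages ("members", dark) and in DCT-negative C1q macrophages (light). Bars mark list medians. Type I interferon genes lie above 0 in both (medians 2.24 and 1.78), and the MHC class II medians are -0.14 and -0.79.

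Among 17 chemokine genes tested, 4 were called higher in IR (Ccl22, Ccl3, Ccl4 and Cxcl3) and Cxcl9 lower. The inflammatory chemokine genes Ccl3 and Ccl4 were at 99.0 and 199 CPM in Control and 309 and 635 CPM in IR, and in DCT-negative cells at 144 and 239 CPM and 704 and 1045 CPM. Cxcl3, a neutrophil-attracting chemokine, was at 56.1 and 466 CPM, and 5 IR cells held 78.6% of its UMIs. Ccl22, which shares the receptor CCR4 with Ccl17, was at 67.2 CPM in Control and 303 CPM in IR (4.52-fold, 3.85 to 5.32), against 4.94 and 0.504 CPM in DCT-negative cells. The Ccl22 difference lay in few cells: 5 cells held 82.6% of the IR UMIs, and without the 11 and 8 cells with Ccr7 and Fscn1 it was at 26.7 and 34.6 CPM. Ccl22 was at 150 and 603 CPM in DCT macrophages with Ccl17 and at 15.7 and 12.5 CPM in those without it. Ccr7, the lymph node homing receptor, was at 32.2 and 249 CPM with 89.6% of its IR UMIs in 5 cells, and Fscn1, an actin bundler of mature dendritic cells, at 16.2 and 58.3 CPM. Of the 80 genes called higher, 63 were also called without the cells that carried Ccr7 and Fscn1. The 17 lost included Ccr7, Fscn1, Ccl22, Cd80, Il4i1, Napsa and Traf1. Without cells holding RNA of any other lineage 60 genes were called, 50 of them among the 80, with Slpi, Mfge8, Ccl3, Ccl4 and Il6 among the 30 lost.

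Cytokine genes of inflammation were mixed. Inhba, the activin A subunit, was at 52.4 CPM in Control and 353 CPM in IR (6.73-fold, 5.67 to 8.01). Without cells holding RNA of other lineages it was at 364 CPM in IR. Of its IR UMIs, 59.8% were in 5 cells. DCT-negative cells had Inhba at 22.3 CPM in Control and 150 CPM in IR, also higher in IR. Tnf was at 65.5 and 226 CPM (3.45-fold, 2.91 to 4.11), and Il6 at 9.68 and 49.2 CPM, with 9 IR cells holding all of its UMIs there. Il1b was high throughout, 1632 and 2645 CPM against 582 and 1627 CPM in DCT-negative cells, and was not called. Of 21 NF-kB genes tested, 3 were called higher (Traf1, Tnf and Il6) and 0 lower, with a median of 0.18 beside 0.40 in DCT-negative cells. The sign of that median was negative without cells holding RNA of other lineages (-0.11) and with genes of at least 100 CPM (-0.08). Over DCT-negative cells the NF-kB list median was 0.66 in Control and 0.30 in IR, with Rel called. Cd80, a costimulatory ligand, was called higher (28.2 and 68.8 CPM), and Cd86 was at 102 and 190 CPM without reaching 2-fold. Of 11 costimulation and checkpoint genes tested, the median was 0.45, beside 0.38 in DCT-negative cells.

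Some of the highest folds came from hardly any cells. Slpi, a secreted protease inhibitor, was at 13.7 and 269 CPM, but 1 IR cell held 296 of its 383 UMIs. DCT-negative cells also had more Slpi in IR, at 29.4 CPM in Control and 410 CPM in IR. Mmp13, a collagenase, was at 29.9 and 268 CPM, and 1 IR cell held 291 of 382 UMIs. Its levels in DCT-negative cells were 70.3 and 96.2 CPM. Plac8, a gene of monocytes, was more evenly spread, at 147 and 653 CPM with 46.9% of its IR UMIs in 5 cells, and was at 219 and 1083 CPM in DCT-negative cells. Spp1, which encodes osteopontin, was at 1810 and 4601 CPM, and was the only gene called in the fusion and osteoclast list (1 of 10 tested). Of that list, Ocstamp, the partner of Dcstamp in fusion, was at 11.4 and 4.92 CPM, Ctsk at 1.99 and 4.92 CPM, and Oscar, Siglec15 and Calcr were at 0 UMIs in both libraries.

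Some genes of alternative activation were called lower in IR, a larger share than the 0.672% called lower over all 4467 genes. Of 21 genes tested on the IL-4, IL-13 and GM-CSF list, 0 were called higher and 4 lower, Retnla, Mrc1, Klf4 and Batf3, while 13 had a log2 ratio above 0 and the list median was 0.10. Mrc1, the mannose receptor, was at 261 CPM in Control and 110 CPM in IR (2.37-fold lower), and at 393 and 142 CPM in DCT-negative cells. Klf4, a transcription factor of macrophage differentiation, was at 705 and 316 CPM (2.23-fold lower, 2.02 to 2.47). Retnla was at 475 and 33.7 CPM, but 65.8% of its Control UMIs were in 5 cells and its IR UMIs were in 2 cells. Arg1, the arginase of alternative activation, was at 2368 and 2425 CPM, whereas DCT-negative cells had 3304 and 4709 CPM. The sterol synthesis genes Hmgcs1 and Cyp51 were at 108 and 111 CPM in Control and 37.2 and 41.4 CPM in IR, and the desaturase Scd2 at 160 and 67.4 CPM. Gatm, an enzyme of creatine synthesis, was at 355 and 109 CPM, Slc7a2, an arginine transporter, at 406 and 176 CPM, and Oxct1, a ketone body enzyme, at 100.5 and 40.0 CPM. These genes were present in most Control cells, and their levels in DCT-negative cells were lower in IR too, with log2 ratios between -1.21 and -1.46. Cdh1, E-cadherin, which macrophages make in response to IL-4, was at 128 and 49.9 CPM. Col3a1 and Gzmc, genes of fibroblasts and cytotoxic lymphocytes, were on the lower list through few Control cells: 5 cells held all 422 Col3a1 UMIs and 91.7% of the 661 Gzmc UMIs.

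The other lists differed in how many genes were called in DCT macrophages. Over all 4467 genes, 1.79% were called higher and 0.672% lower, so 0 called in a short list says little. Of 14 lipid handling genes tested, 1 was called higher (Cd36) and 2 lower (Apoe and Ch25h), with a median of 0.30 beside -0.24 in DCT-negative cells. Of 13 matrix genes tested, 1 was called higher, Mmp13, and the median was 0.35 beside 0.33. The p53 list had 6 genes tested and 0 called, with a median of -0.06, and Cdkn1a, the cell cycle inhibitor p21, was at 517 and 690 CPM. Of 17 hypoxia and glycolysis genes 0 were called, and of 8 S phase and mitosis genes 1 was called lower, Stmn1. Of 13 genes on the list of inflammatory and resident states, 3 were called higher (Clec5a, Hmox1, Mmp13) and 2 lower (Selenop, Mrc1). Of the 6 m6A writers, erasers and readers tested, 0 were called and the median was -0.21. Ythdf2, which encodes an m6A reader, was at 39.8 CPM in Control and 33.7 CPM in IR.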

How the data were processed

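For each library the authors deposited 1 unfiltered matrix of UMI counts, by gene and droplet barcode, made with Cell Ranger (6.0.1 per the submitters' notes, whereas the matrix header names another release) against mm10. No map of pooled tumors to cells was used. DoubletFinder, the doublet caller named by the study, was not run. Scrublet (scanpy 1.11.5) served as an alternative.

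From these counts, UMIs of duplicate symbols were summed, and UMIs were added over the cells of a population and scaled to CPM. The Control library held 48593879 UMIs and the IR library 42406461. The libraries shared 6 passing barcodes, none of them a DCT macrophage. No test was possible with a single library on each side. Shares carry exact Clopper-Pearson and CPM exact Poisson 95% intervals, for counting error only. Log2 ratios used CPM plus 10. Genes tested had a mean of 25 CPM or more over the populations compared. Named genes were the 12 with the largest ratio in each direction: for IR against Control, 100 CPM in 1 library and intervals that did not overlap, and for DCT macrophages against DCT-negative cells, 100 CPM in both libraries of either population, ranked by the library with the smaller ratio. Excluded from naming were the rule genes, mitochondrial genes and sex-linked marker genes, and genes of the lists could also be named. The cells and gene lists were chosen with earlier results of these data known. Scripts were tested on simulated data. TMM factors came from edgeR 4.0.16 (R 4.3.3). Some items are not reported here.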

Additional observations from a re-analysis of the deposited data

Results flagged for a closer look

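Mfge8, which encodes a bridge between apoptotic cells and phagocytes, differed in direction between the C1q populations. In DCT macrophages it was at 44.4 CPM in Control and 126 CPM in IR, a log2 ratio of 1.33, and in DCT-negative cells at 44.4 and 12.6 CPM, a log2 ratio of -1.27. The difference between the populations was not tested. In IR 5 cells held 70.6% of its UMIs in DCT macrophages, and without cells holding RNA of other lineages the log2 ratio was 0.76. Under the rule at 5000 UMIs per barcode it was -0.44, from 37 and 5 UMIs.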

How the results depend on the processing

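Across 16 alternatives, 3 of them (removing cells with Ccr7 and Fscn1, removing cells with 10 or more Ccl17 UMIs, no cycling limit) chosen after seeing the data, 134 values were recomputed: 113 stayed within a 95% interval, or within 1.5 times of a count, and 21 moved. For a share ratio this was its own interval. For a list median it was the counting interval of the middle gene or genes of the list, on plain CPM ratios, and not an interval of the median. The NF-kB median of 0.18 stayed within that range but was below 0 without cells holding RNA of other lineages (-0.11) and with genes of at least 100 CPM (-0.08). At 5000 UMIs per barcode the share ratio was 0.257 among all barcodes and 0.668 among C1q macrophages, the type I interferon median was 1.51, and 165 genes were called higher and 186 lower in IR and 14 higher in DCT macrophages, from far fewer UMIs. Without cells holding RNA of other lineages the share ratios were 0.296 and 0.701, the MHC class II median -0.021 and the interferon median 1.90. The class II median was -0.25 without cells with Ccr7 and Fscn1, and -0.51 with the interferon median at 2.07 without cells of 10 or more Ccl17 UMIs. The Ccl17 removal took a larger share of IR than of Control cells. The interferon median was 1.99 with no cycling limit, 2.03 with totals without mitochondrial and ribosomal genes and 1.90 with genes of at least 100 CPM. That filter left 35 genes higher and 11 lower in IR and 3 higher in DCT macrophages, and a pseudocount of 1 CPM gave 46 lower and 19 higher, respectively. Except for the fewer UMIs, cells or genes that these settings leave, the cause was not tested. No paired analysis was possible because each group had 1 library.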
